A study of Mus musculus with 8 samples.

Results

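The genes described here are 44 genes of S phase and DNA replication, followed in the embryonic mouse cortex with and without Mboat7. They were chosen by name as genes that license, start, carry out or time DNA replication, and all 44 were listed in both count tables, among 23420 genes in the table of embryonic day E11.5 and 78298 in that of E12.5. Mboat7 encodes the acyltransferase that places arachidonic acid into phosphatidylinositol. Cortices came from Mboat7+/- and Mboat7-/- mouse embryos of a global knockout kept on the C57BL/6N background, so the controls also carry 1 knockout allele. There were 2 embryos of each genotype at either stage, 8 cortices in all, and poly(A) RNA of each was sequenced as a separate library. The 2 stages were sequenced by different providers, so stage and provider cannot be told apart.

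A cell copies its genome once per division. The origin recognition complex, Cdc6 and Cdt1 load the MCM2-7 helicase onto DNA in G1 phase, Cdc45 and the GINS complex activate that helicase at the start of S phase, and primase, the replicative polymerases and the Pcna clamp then copy both strands. Many of the genes are transcribed in waves around the transition from G1 to S phase under E2F factors, and in the early cortex the dividing cells that use them are mainly radial glial cells, the neural stem cells of this tissue, and intermediate progenitors. The study followed the cell cycle of these progenitors by labelling dividing cells, so the question put to the RNA here is whether the replication genes differed in level between the genotypes.

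Letters bound by E2F factors mark many promoters of the group, and these windows show them in the MCM2-7 and G1/S control members that hold them. Promoters were taken from RefSeq on the build GRCm38.p6, from 250 bases before to 50 bases after the start of the gene, and 36 of the 44 members had at least 1. The motif was searched on both strands as TTTCCCGC, TTTCGCGC, TTTGCCGC or TTTGGCGC, and capitals mark the matches, of which neighbours on opposite strands can overlap.
Mcm3, chr1:20820266-20820294, minus strand: gGCGGGAAAacttgggaagtTTTGGCGCc
Mcm6, chr1:128359725-128359835, minus strand: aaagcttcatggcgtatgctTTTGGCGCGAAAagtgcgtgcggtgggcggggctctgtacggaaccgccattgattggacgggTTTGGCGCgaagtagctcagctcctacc
Mcm5, chr8:75109336-75109387, plus strand: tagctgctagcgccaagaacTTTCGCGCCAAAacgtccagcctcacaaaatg
Mcm7, chr5:138172021-138172068, minus strand: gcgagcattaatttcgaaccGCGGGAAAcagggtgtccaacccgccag
Mcm7, chr5:138171849-138171878, minus strand: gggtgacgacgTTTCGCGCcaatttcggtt
E2f7, chr10:110745221-110745268, plus strand: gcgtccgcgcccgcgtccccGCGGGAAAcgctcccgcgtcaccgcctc
In the Mcm5 window and at the upstream site of Mcm6, matches on both strands overlapped into 1 run. Of these 36 members, 15 held the motif in a promoter, which is 41.7%, against 704 of all 27025 genes with a promoter, which is 2.60%. Of 19 M-phase genes with a promoter, 1 held it. The CCAAT box, searched on both strands as CCAAT after the data were seen, was there in 23 of the 36 members (63.9%), in 16 of the 19 M-phase genes and in 41.1% of all genes. The cell cycle homology element, searched likewise as TTTGAA, was there in 6 members (16.7%), in 14 of the 19 M-phase genes and in 20.2% of all genes. A match describes the letters only.

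Every member was expressed in every cortex. The members' raw counts lay between 269 and 14260 at E11.5 and between 168 and 9214 at E12.5, in libraries of 21843330 to 28189771 and of 20799311 to 23330432 counts. All 44 passed the filter on low counts. In each stage, a level below is in CPM (the gene's counts scaled by the size of the library), computed from the deposited counts on library sizes normalized by TMM, and levels are compared between genes only per kilobase (kb) of exon.

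Per kb of exon, Pcna, the sliding clamp that holds the polymerases on DNA, had the highest level at both stages, with a mean over the 4 cortices of 245 CPM per kb at E11.5 and 253 at E12.5. Rrm2, the subunit of ribonucleotide reductase whose supply sets the making of deoxynucleotides, followed with 198 and 148 CPM per kb, and Mcm7, a subunit of the helicase ring, with 152 and 129. At the low end stood Ccne2, a G1/S cyclin, at 4.25 CPM per kb at E11.5, and Orc1, the largest subunit of the origin recognition complex, at 5.53 CPM per kb at E11.5 and 2.93 at E12.5. A median member had a level of 40.1 CPM per kb at E11.5 and 30.5 at E12.5. Their order was much the same at both stages, with a Pearson r of 0.966 between the log2 levels across the 44 genes, which share their lengths in this measure. Set side by side, 40 of the 44 levels per kb were lower at E12.5, with a median ratio of 0.784, and the exceptions were Ccne2 (ratio 2.01), Rfc4 (1.24), Gins2 (1.05) and Pcna (1.03). These tables were normalized separately and come from different providers, so no test was made between them. No share or ratio over all genes was taken here, so these ratios are not read as a change with stage.

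**Figure D1:**
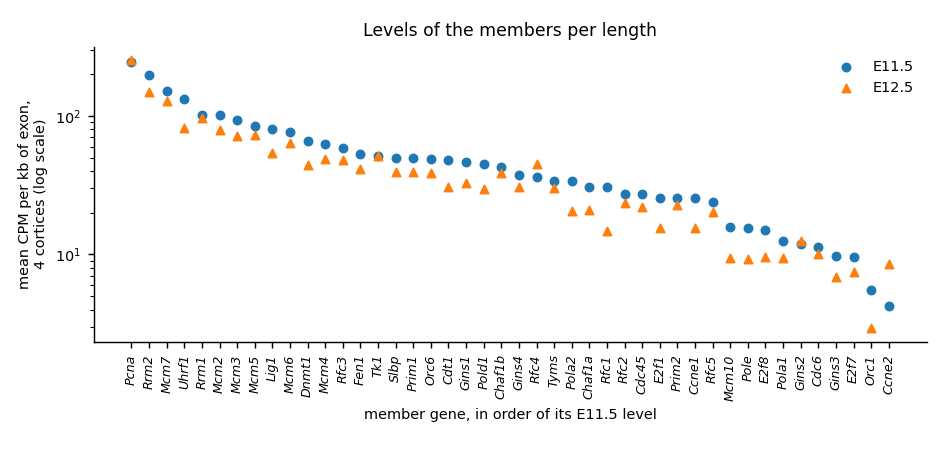
Mean level of each of the 44 members per kb of exon over the 4 cortices of a stage, on a log scale, with circles for E11.5 and triangles for E12.5. Pcna is highest at both stages, and Ccne2 has the largest ratio of E12.5 to E11.5, at 2.01.

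The labels and the other cells of the tissue were checked first. Mboat7 itself had 32.3 and 33.1 CPM in Mboat7+/- and 39.0 and 34.8 CPM in Mboat7-/- at E11.5, a fitted log2 fold change of 0.18 ± 0.11 (standard error), and 35.5 and 36.2 CPM in Mboat7+/- and 31.7 and 32.2 CPM in Mboat7-/- at E12.5, a log2 fold change of -0.17 ± 0.10. The gene's counts are not split by exon and the counts do not separate the genotypes in 1 direction, so they do not check the labels, and Xist, the RNA of the inactive X chromosome, reached 17875 counts in Mboat7+/- replicate 1 at E11.5 but at most 2 elsewhere. The sex of the embryos was thus not matched at E11.5. Mboat7-/- stands below for the cortices that are labelled so. The dorsal forebrain markers Emx1, Emx2, Lhx2 and Pax6 were present in every cortex. At E11.5 all 4 were lower in Mboat7-/- (median log2 fold change -0.28, 3 of them with an unadjusted p under 0.05), and at E12.5 3 were higher and 1 lower (median 0.030). Neuron markers, Tubb3 and Map2 among them, were lower at E11.5 in 17 of 17 genes (median log2 fold change -0.24), and their summed level was 2582 and 2961 CPM in Mboat7+/- against 1767 and 2742 CPM in Mboat7-/-. At E12.5 they were higher in 14 of 17 genes (median 0.065). Intermediate progenitor markers such as Neurog2 were lower in 10 of 10 genes at E11.5 (median -0.27) and higher in 8 of 10 at E12.5 (median 0.10). Their summed level at E11.5 was 816 and 839 CPM in Mboat7+/- against 604 and 792 CPM in Mboat7-/-. Most of this difference lay in Mboat7-/- replicate 1. Radial glial markers, led by Vim and Nes, were lower in 6 of 12 genes at E11.5 and 7 of 12 at E12.5 (medians -0.010 and -0.019). Ventral markers were lower in 9 of 10 genes at E11.5 and 6 of 10 at E12.5. Their sums at E11.5 were 667 and 622 CPM in Mboat7+/- against 498 and 618 CPM in Mboat7-/-, where replicate 1 was again the lowest. Mesenchyme, endothelium and microglia markers were mostly higher, in 9 of 10, 7 of 8 and 6 of 8 genes at E11.5 and in 7 of 10, 7 of 8 and 7 of 8 at E12.5. The summed level of blood markers, mainly globins such as Hbb-y and Hba-x, was 6934 and 5217 CPM against 3633 and 3865 CPM at E11.5 and 5119 and 7498 CPM against 5223 and 3562 CPM at E12.5. Hba-a1 and Hba-a2 were listed at 0 at E11.5. In bulk cortex, fewer cells of a type and less RNA per cell cannot be told apart.

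At E11.5 the replication genes lay close to evenly on both sides of 0. The fitted log2 fold change, Mboat7-/- over Mboat7+/-, was above 0 for 18 members and below 0 for 26, where 51.1% of all genes were below 0, with a median of -0.019 beside -0.0055 over all 14935 genes tested. It ranged from -0.26 for Rfc3, a subunit of the clamp loader, to 0.33 for Ccne2. No member was called at a false discovery rate (FDR) under 0.05 by the quasi-likelihood test of edgeR, adjusted after Benjamini and Hochberg, and the smallest adjusted p was 0.187, for Dnmt1. No other gene of the table was called either (background 0.0%), whereas DESeq2 called 178 genes but no member. An unadjusted p under 0.05 was reached by 6 members, against 14.1% of all genes. Of these, 4 were higher in the Mboat7-/- cortices, against a background of 8.03%, and 2 were lower, against 6.07%. Without overlap between the genotypes, 8 members were higher and 11 lower, where 23.1% and 23.3% of all genes were. By these counts the group was near the background at E11.5. Its summed level was 6907 and 6867 CPM in Mboat7+/- and 7136 and 6753 CPM in Mboat7-/-.

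With the batch number as a block, 505 genes were called at E11.5 but no member. The same 6 members had an unadjusted p under 0.05, beside 17.6% of all genes. The count of such members was 3 without Mboat7+/- replicate 1, 1 without Mboat7+/- replicate 2 and 4 without Mboat7-/- replicate 1, beside 7.81%, 5.98% and 12.3% of all genes. Without Mboat7-/- replicate 2 it was 7, beside 21.0%, and Pola1 and Rfc1 were then called, among 1184 genes. Within batch 1 the median log2 difference of the members was 0.023, with 18 of 44 below 0, and within batch 2 it was -0.053, with 30 below 0, where 50.8% and 50.1% of all genes were below 0. Mboat7-/- replicate 1 was the highest of the 4 cortices for 22 members and Mboat7-/- replicate 2 the lowest for 26, so the cortices of this genotype stood at opposite ends.

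**Figure D2:**
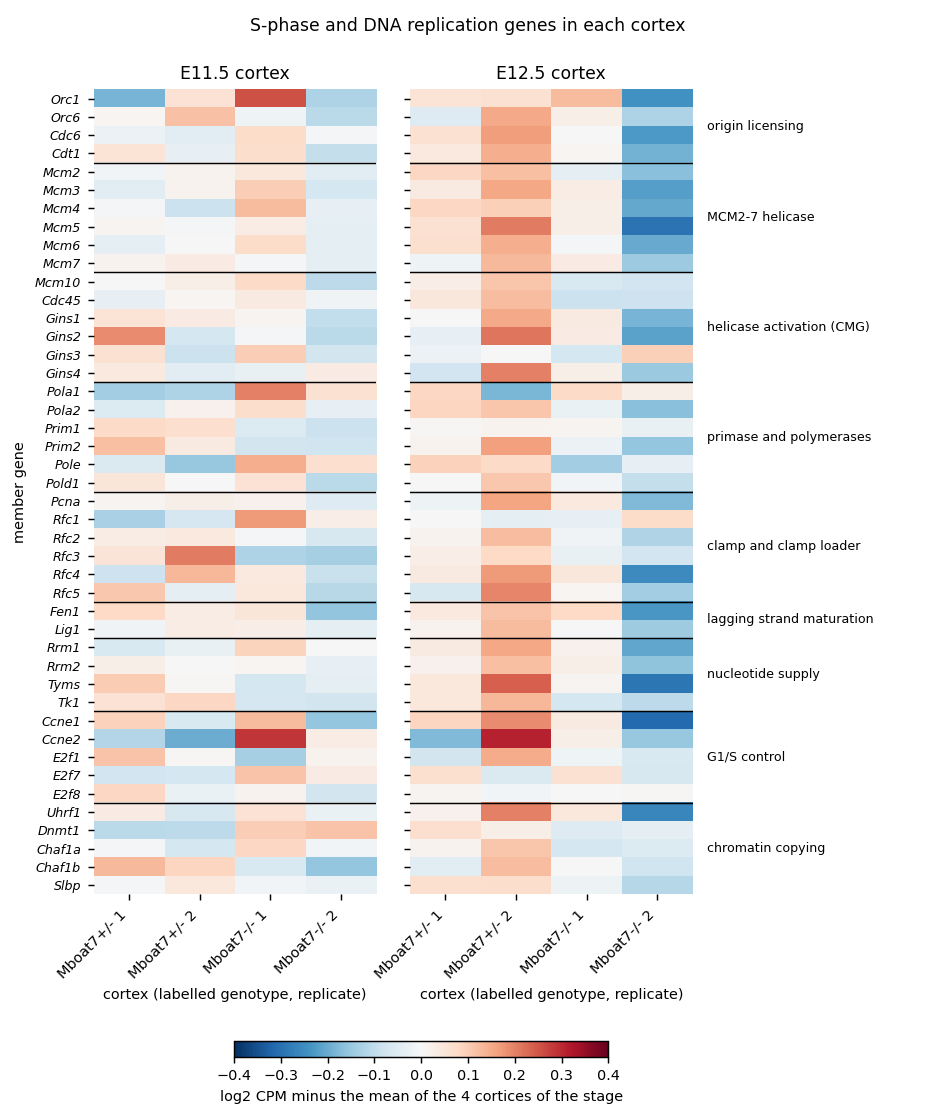
Level of each of the 44 members (rows, by role) in each of the 8 cortices (columns) as log2 CPM minus the mean of the 4 cortices of the stage, red above and blue below that mean. At E12.5 Mboat7+/- replicate 2 was highest in 36 members and Mboat7-/- replicate 2 lowest in 34.

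Dnmt1, Pola1, Pole and Rfc1 were the 4 members higher at E11.5 with an unadjusted p under 0.05 (edgeR), where 8.03% of all genes were. Dnmt1, the enzyme that copies DNA methylation onto the new strand, had 384 and 384 CPM in Mboat7+/- and 442 and 448 CPM in Mboat7-/-. Its log2 fold change was 0.21 ± 0.055, with 0.20 in batch 1 and 0.22 in batch 2 and an adjusted p of 0.187 (edgeR). The pairs of Dnmt1 values were tight and well apart. Pola1, the catalytic subunit of the polymerase that extends primers, had 59.9 and 60.6 CPM in Mboat7+/- and 76.0 and 69.0 CPM in Mboat7-/-, a log2 fold change of 0.27 ± 0.086 with 0.34 in batch 1 and 0.18 in batch 2 (edgeR, adjusted p = 0.241). Pole, the catalytic subunit of the leading strand polymerase, had 109 and 103 CPM in Mboat7+/- and 126 and 119 CPM in Mboat7-/-, a log2 fold change of 0.21 ± 0.074 (edgeR, adjusted p = 0.266). Rfc1, the large subunit of the clamp loader, had 133 and 139.5 CPM in Mboat7+/- and 165 and 149 CPM in Mboat7-/-, a log2 fold change of 0.20 ± 0.075 (edgeR, adjusted p = 0.289). In all 4 genes both Mboat7-/- cortices lay above both Mboat7+/- cortices.

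Both members with an unadjusted p under 0.05 and a lower level at E11.5 are subunits of larger complexes, as are Pola1, Pole and Rfc1. Rfc3 had 79.9 and 89.2 CPM in Mboat7+/- and 70.8 and 70.4 CPM in Mboat7-/-, a log2 fold change of -0.26 ± 0.084 with -0.17 in batch 1 and -0.34 in batch 2 (edgeR, adjusted p = 0.239). Chaf1b, a subunit of the factor that puts histones onto new DNA, had 91.9 and 89.0 CPM in Mboat7+/- and 80.4 and 75.5 CPM in Mboat7-/-, a log2 fold change of -0.21 ± 0.078 with -0.19 in batch 1 and -0.24 in batch 2 (edgeR, adjusted p = 0.278). Their partners were not all on the same side of 0. Rfc2, Rfc4 and Rfc5 had log2 fold changes of -0.068, -0.055 and -0.065 and Rfc1 one above 0, and Chaf1a, the largest subunit of the histone factor, had one of 0.076 with overlapping genotypes.

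The remaining roles at E11.5 held smaller differences. In the MCM2-7 helicase, which unwinds the DNA, 3 subunits were above 0 and 3 below, within -0.045 for Mcm7 and 0.094 for Mcm4. Mcm4, the subunit with the smallest p, had 225 and 213 CPM in Mboat7+/- and 247 and 221 CPM in Mboat7-/-, so that the genotypes overlapped. Of the licensing genes, Orc6, a subunit of the origin recognition complex, had 78.2 and 84.4 CPM in Mboat7+/- and 76.9 and 72.2 CPM in Mboat7-/-, a log2 fold change of -0.13 ± 0.083. The GINS subunit Gins2, most of whose exon bases lie opposite another gene, had 52.4 and 43.8 CPM in Mboat7+/- and 45.7 and 42.7 CPM in Mboat7-/-, where 1 Mboat7+/- cortex stood above the other 3.

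Both primase subunits lay below 0. Of the 2 enzymes that finish the lagging strand, Fen1 was below 0 and Lig1 near it, at -0.015 ± 0.060 with overlap. Prim1, the catalytic subunit of primase, had 82.8 and 82.2 CPM in Mboat7+/- and 75.5 and 73.9 CPM in Mboat7-/-, a log2 fold change of -0.14 ± 0.075, and its partner Prim2 had one of -0.15 ± 0.089, both without overlap. Fen1, the nuclease that trims Okazaki fragments and likewise lies opposite another gene, had 135 and 131 CPM in Mboat7+/- and 132 and 115 CPM in Mboat7-/- with overlap. Tk1, which salvages thymidine, had 77.3 and 78.6 CPM in Mboat7+/- and 70.8 and 70.5 CPM in Mboat7-/-, a log2 fold change of -0.14 ± 0.077 without overlap. None of these had an unadjusted p under 0.05.

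G1/S control held the largest single value. Ccne2, a partner of Cdk2, had 12.4 and 11.7 CPM in Mboat7+/- and 16.4 and 13.8 CPM in Mboat7-/-, a log2 fold change of 0.33 ± 0.17 with an unadjusted p of 0.0831 and an adjusted p of 0.425 (edgeR). E2f7, an E2F family repressor of the same targets, had 71.4 and 71.6 CPM in Mboat7+/- and 81.4 and 76.9 CPM in Mboat7-/-, a log2 fold change of 0.15 ± 0.079. Ccne1, the other E-type cyclin, had a log2 fold change of -0.017 and E2f1, an activating E2F, one of -0.12, both with overlap.

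**Figure D3:**
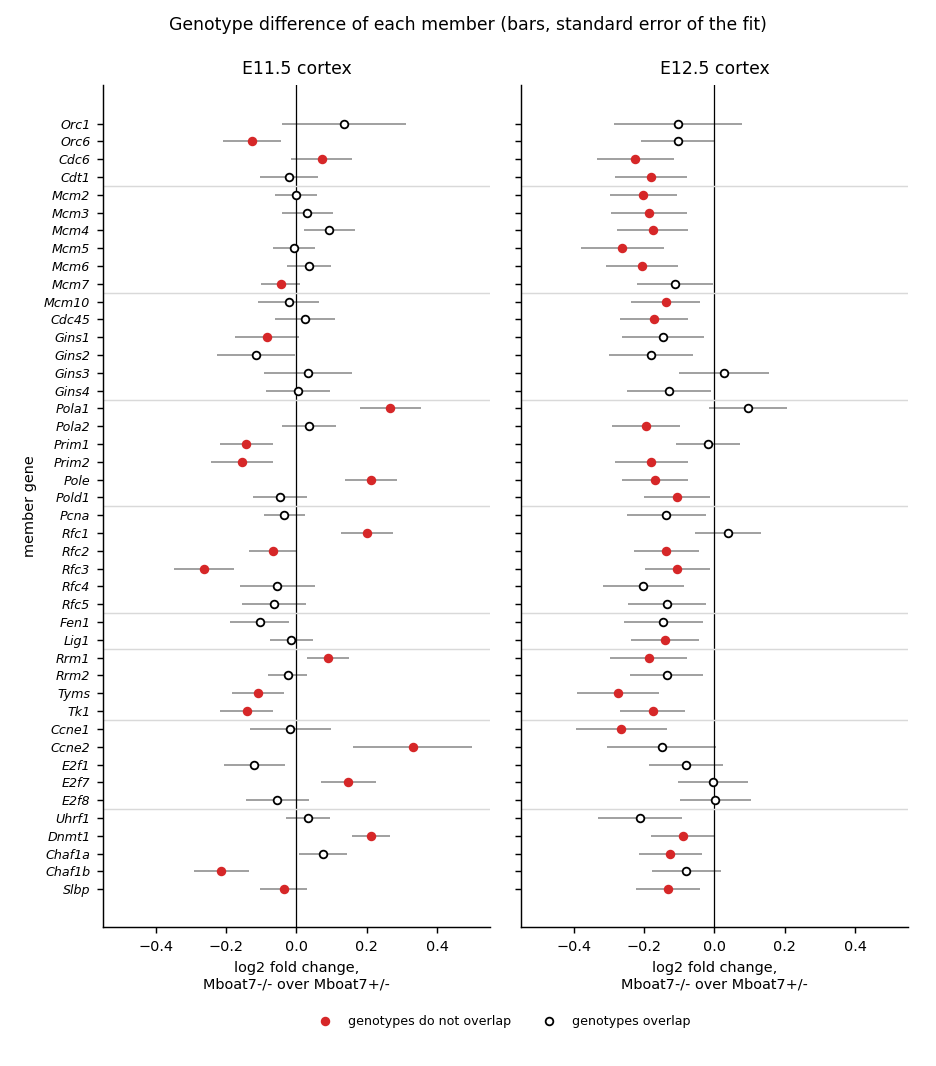
Fitted log2 fold change of each member (Mboat7-/- over Mboat7+/-, bars are the standard error of edgeR's fit) at E11.5 and E12.5, in the order of the roles in the plot of levels by cortex. Filled points have no overlap between the 2 cortices of each genotype, 19 members at E11.5 and 23 at E12.5.

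Differences at E11.5 went with exon length. Across the 44 members, the log2 fold change at E11.5 and the log2 exon length had a Pearson r of 0.62 and a Spearman rho of 0.60, whereas at E12.5 these were 0.16 and 0.058. This is a description across genes, which share their libraries. Of the 22 members longer than the median of 3158.5 bases, 12 were above 0 (median 0.034), and of the 22 shorter ones 6 were (median -0.040). Dnmt1, Pola1, Pole and Rfc1 have exons of 6301, 5346, 7423 and 4798 bases in all, whereas Rfc3 and Chaf1b have 1317 and 1955. When the trend of every library with length and GC content was removed, Rfc3 alone kept an unadjusted p under 0.05 at E11.5. Of all genes, 8.38% had such a p in that fit. In it 21 members were below 0, and their median was 0.0019 beside -0.016 over all genes.

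**Figure D4:**
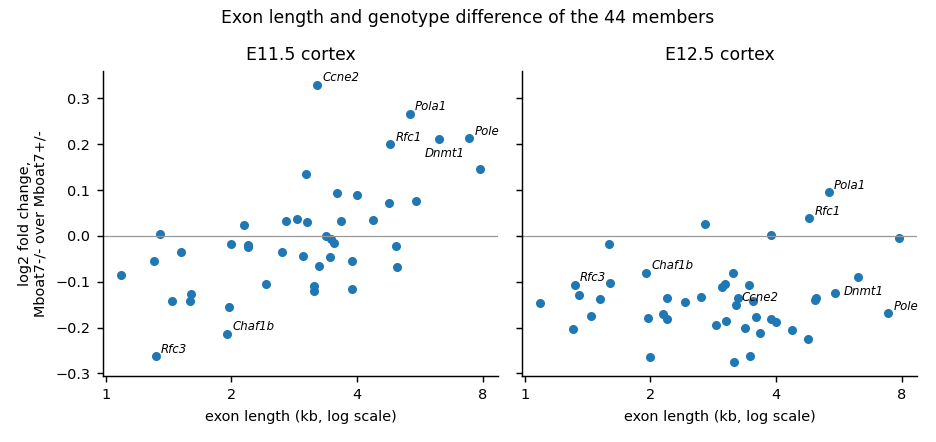
Log2 fold change of each member (Mboat7-/- over Mboat7+/-) against its exon length in kb on a log scale, at E11.5 and E12.5. At E11.5 longer members lay higher, with a Pearson r of 0.62, and at E12.5 it was 0.16.

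At E12.5 the replication genes leaned to lower levels in the Mboat7-/- cortices, without a call for any of them. The log2 fold change was below 0 for 40 of 44 members (90.9%), where 48.8% of all 16326 genes tested were below 0, with a median of -0.14 beside 0.0049 over all genes. It ranged from -0.27 for Tyms to 0.095 for Pola1, and the others above 0 were Rfc1, Gins3 and E2f8. No member was called at an FDR under 0.05 (edgeR), and every adjusted p was at least 0.954. The background was 3 called genes, or 0.0184%, and DESeq2 called 10 genes but no member. An unadjusted p under 0.05 was reached by 2 members, Tyms and Mcm5, against 4.23% of all genes. Both were lower, against a background of 1.38%, and no member was higher, against 2.85%. The genotypes did not overlap for 23 members, all lower, where 15.2% of all genes were lower and 16.9% higher without overlap. With the trend of length and GC content removed, 43 members were below 0, and their median was -0.16 beside -0.025 over all genes. Sums over the group were 5464 and 5868 CPM in Mboat7+/- and 5387 and 4808 CPM in Mboat7-/-.

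The size of this lean rested on replicate 2 of each genotype. Mboat7+/- replicate 2 was the highest of the 4 cortices for 36 members and Mboat7-/- replicate 2 the lowest for 34. The median deviation of the members from the mean of the 4 cortices was 0.025 and 0.13 log2 units in Mboat7+/- and 0.0078 and -0.15 in Mboat7-/-. Within batch 1 the median log2 difference was -0.015, with 28 of 44 members below 0, and within batch 2 it was -0.28, with 40 below 0, where 49.7% and 47.4% of all genes were below 0. Without Mboat7-/- replicate 2 the median was -0.065 with 38 members below 0, and without Mboat7+/- replicate 2 it was -0.090 with 36 below 0, and in neither case did a member have an unadjusted p under 0.05, which 3.05% and 2.06% of all genes had. Without Mboat7-/- replicate 1 the median was -0.22 and 15 members had one, beside 12.4% of all genes, and without Mboat7+/- replicate 1 it was -0.20 and 4 members had one, beside 7.47% of all genes. With the batch number as a block, 32 genes were called but no member. Tyms alone had an unadjusted p under 0.05 there, beside 3.56% of all genes.

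Other lists moved over the same cortices. The summed level of the 9 blood markers tested was 7498 CPM in Mboat7+/- replicate 2 and 3562 CPM in Mboat7-/- replicate 2, the same cortices that were highest and lowest for the members, and all 9 were lower in the Mboat7-/- cortices (median -0.57). Within batch 1 the median of the blood markers was 0.045 and within batch 2 it was -1.14. Neuron markers ran the other way, with a median deviation of -0.15 in Mboat7+/- replicate 2 and 0.11 in Mboat7-/- replicate 2, while radial glial markers deviated by 0.059 and -0.064. Of 22 M-phase genes, among them Mki67 and Tpx2, 14 were lower (median -0.068), with deviations of 0.079 and -0.087 in these cortices. At E11.5 12 of the 22 were higher (median 0.012). The part of the makeup of the cortices in the members' values was not tested.

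**Figure D5:**
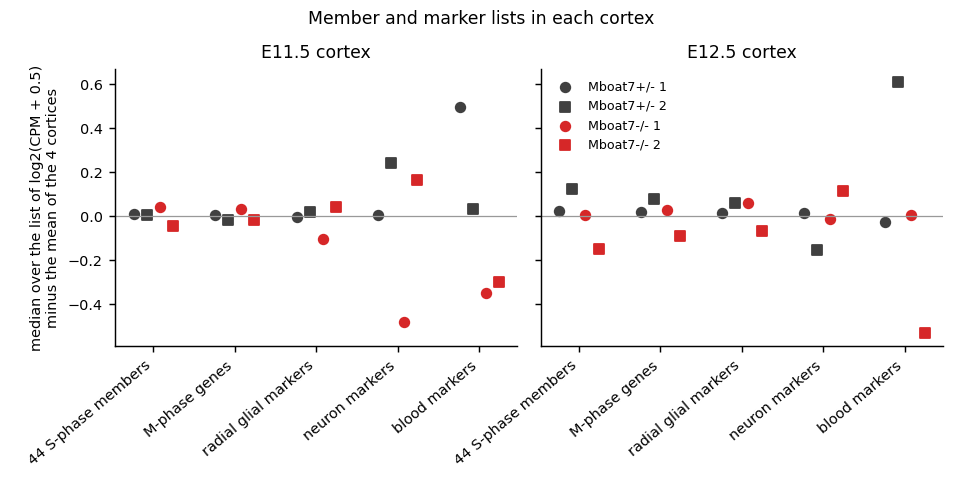
Median over each list of log2(CPM + 0.5) minus the mean of the 4 cortices of the stage, one point per cortex, grey for Mboat7+/- and red for Mboat7-/-, circles for replicate 1 and squares for replicate 2. At E12.5 the members and the blood markers are highest in Mboat7+/- replicate 2 and lowest in Mboat7-/- replicate 2.

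Nucleotide supply held the largest difference at E12.5. Tyms, which makes thymidylate, had 97.2 and 111 CPM in Mboat7+/- and 95.1 and 77.4 CPM in Mboat7-/-. Its log2 fold change was -0.27 ± 0.12, with -0.031 in batch 1 and -0.52 in batch 2 (edgeR, unadjusted p = 0.0379 and adjusted p = 0.954). The genotypes did not overlap for Tyms, but almost the whole difference lay in batch 2. Tk1 had 75.6 and 80.6 CPM in Mboat7+/- and 70.0 and 68.4 CPM in Mboat7-/-, a log2 fold change of -0.18 ± 0.092 with -0.11 in batch 1 and -0.24 in batch 2. The genotypes did not overlap for Tk1, so the same sign in both batches follows from that and adds nothing to it. The ribonucleotide reductase subunits Rrm1 and Rrm2 had log2 fold changes of -0.19 and -0.14.

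All 6 subunits of the MCM2-7 helicase were below 0 at E12.5, with a median of -0.19, and only Mcm7 had overlapping genotypes. Mcm5 had 259.6 and 287 CPM in Mboat7+/- and 253 and 203 CPM in Mboat7-/-, a log2 fold change of -0.26 ± 0.12 with -0.036 in batch 1 and -0.50 in batch 2 (edgeR, unadjusted p = 0.0476 and adjusted p = 0.954). Mcm2 had 279.7 and 288 CPM in Mboat7+/- and 258 and 236 CPM in Mboat7-/-, a log2 fold change of -0.20 ± 0.096 with -0.12 in batch 1 and -0.29 in batch 2. Mcm6 had 289 and 305 CPM in Mboat7+/- and 275 and 240.0 CPM in Mboat7-/-, a log2 fold change of -0.21 ± 0.10. The rank of the cortices was the same in all 3 genes, with Mboat7+/- replicate 2 highest and Mboat7-/- replicate 2 lowest. In batch 1 the subunits' median log2 difference was -0.049 and in batch 2 it was -0.32.

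The loaders of the helicase followed. Cdc6, which helps to load the ring onto origins, had 50.1 and 53.8 CPM in Mboat7+/- and 48.0 and 40.9 CPM in Mboat7-/-, a log2 fold change of -0.22 ± 0.11, and Cdt1, its partner, one of -0.18 ± 0.10, both without overlap. Cdc45, which joins MCM2-7 and GINS into the active helicase, had 48.6 and 51.3 CPM in Mboat7+/- and 44.3 and 44.5 CPM in Mboat7-/-, a log2 fold change of -0.17 ± 0.097 with -0.13 in batch 1 and -0.20 in batch 2. Of the GINS subunits, Gins1, Gins2 and Gins4 were below 0 and Gins3 was above, all with overlapping genotypes.

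Polymerases and the clamp loader differed by subunit. Pola2, the regulatory subunit of the primer-extending polymerase, had 62.6 and 63.6 CPM in Mboat7+/- and 57.9 and 52.5 CPM in Mboat7-/-, a log2 fold change of -0.19 ± 0.097, whereas Pola1 had one of 0.095 ± 0.11 with overlap. Pole had 73.7 and 73.0 CPM in Mboat7+/- and 62.8 and 67.7 CPM in Mboat7-/-, a log2 fold change of -0.17 ± 0.093 with -0.23 in batch 1 and -0.11 in batch 2. Rfc4, a small subunit of the clamp loader, had 59.8 and 65.6 CPM in Mboat7+/- and 60.1 and 48.9 CPM in Mboat7-/-, a log2 fold change of -0.20 ± 0.12. In Rfc4 the genotypes overlapped, since 1 of the Mboat7-/- cortices lay between the Mboat7+/- cortices. Pcna had a log2 fold change of -0.14 ± 0.11, also with overlap. Lig1, the ligase that seals Okazaki fragments, had 191 and 206 CPM in Mboat7+/- and 189 and 171 CPM in Mboat7-/-, a log2 fold change of -0.14 ± 0.097.

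Among the G1/S regulators at E12.5, Ccne1 had 32.5 and 35.0 CPM in Mboat7+/- and 31.4 and 24.7 CPM in Mboat7-/-, a log2 fold change of -0.26 ± 0.13 with -0.049 in batch 1 and -0.49 in batch 2. Ccne2 had a log2 fold change of -0.15 ± 0.15 with overlap, after 0.33 at E11.5. The E2F repressors E2f7 and E2f8 were near 0, at -0.0046 and 0.0028. Of the chromatin group, Uhrf1, which brings Dnmt1 to newly copied DNA, had 303 and 344 CPM in Mboat7+/- and 308 and 250.0 CPM in Mboat7-/-, a log2 fold change of -0.21 ± 0.12 with overlap. Dnmt1 had one of -0.089 ± 0.092 without overlap. All 5 genes of this group were below 0, with a median of -0.12.

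By promoter letters, 13 of the 15 members with the E2F motif at E12.5 were below 0 (median -0.11), as were 19 of the 21 with a promoter lacking them (median -0.14). At E11.5 these counts were 6 of 15 (median 0.032) and 16 of 21 (median -0.036). These counts were not tested.

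Over both stages, in a fit of all 8 cortices with stage as a term, 36 members were below 0 and 8 above, with a median of -0.079 beside 0.0065 over all 15002 genes, of which 48.3% were below 0. No member and no other gene was called at an FDR under 0.05 (edgeR, background 0.0%), and the smallest adjusted p of a member was 0.312. DESeq2 called 3 genes there, none of them a member. An unadjusted p under 0.05 was reached below 0 by 5 members, against 4.97% of all genes, and above 0 by 1, against 7.39%. The 5 were Rfc3 with a log2 fold change of -0.18 ± 0.063, Tyms with -0.19 ± 0.075, Tk1 with -0.16 ± 0.056, Prim2 with -0.16 ± 0.066 and Chaf1b with -0.15 ± 0.063, and the 1 above 0 was Pola1 with 0.19 ± 0.074. When the length and GC trend was removed, Prim2, Rfc2, Rfc3 and Tyms had such a p, beside 8.04% of all genes. Pola1, Tk1 and Chaf1b then did not. With the block as well, Rfc2 and Tyms had one, beside 6.75%. Without E12.5 Mboat7-/- replicate 2 the median was -0.039 and 3 members had such a p, without E12.5 Mboat7+/- replicate 2 it was -0.041 with 1 member, and without E11.5 Mboat7+/- replicate 1 it was reached by 2 members, beside 10.5%, 7.43% and 8.56% of all genes. At both stages on their own, 6 members were lower without overlap, namely Prim2, Rfc2, Rfc3, Slbp, Tk1 and Tyms, and none was higher at both. Of the 13638 genes tested at both stages, 4.89% were lower and 4.75% higher at both without overlap. Slbp binds the stem-loop of histone mRNAs, and Rfc2 is a small subunit of the clamp loader.

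Whether the genotype difference changed with stage was tested by the interaction of stage and genotype. The difference of log2 fold changes, E12.5 minus E11.5, was below 0 for 38 members, with a median of -0.14, where 49.4% of all genes were below 0. No member was called at an FDR under 0.05 (edgeR, background 0.0%), and the smallest adjusted p was 0.807, for Pole. DESeq2 called 19 genes and no member. An unadjusted p under 0.05 was reached by 3 members, Pole, Dnmt1 and Rrm1, against 5.45% of all genes. All 3 were below 0, against 2.82%, and none above, against 2.63%. That count was 12 without E12.5 Mboat7-/- replicate 1, beside 7.08% of all genes, and 5 without E11.5 Mboat7-/- replicate 2, beside 1698 of 15393 genes. Without overlap at either stage, 4 members were higher at E11.5 and lower at E12.5, against 2.53% of all genes, and none the reverse, against 2.62%. The median was -0.069 without E12.5 Mboat7-/- replicate 2 and -0.079 without E12.5 Mboat7+/- replicate 2. With length and GC content removed, Pole alone had an unadjusted p under 0.05, beside 4.61% of all genes.

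The wider machinery around the members was read from a list of 103 further genes of replication, nucleotide supply, cell cycle control, chromatin copying and the response to replication stress. At E11.5, 53 were higher and 50 lower (median 0.0031), where 51.1% of all genes were lower. Of the 103, 10 higher and 5 lower genes had an unadjusted p under 0.05, against 8.03% and 6.07% of all genes. The 5 with the smallest p were Hells, a chromatin remodeller, with a log2 fold change of 0.32, Cbx5, a heterochromatin protein, with 0.23, Atad5, which unloads the clamp, with 0.36, Nme1, a nucleoside diphosphate kinase, with -0.22, and Atad2, a chromatin-bound ATPase, with 0.23. At E12.5, 27 were higher and 75 lower of the 102 tested (median -0.069), where 48.8% of all genes were lower. Of the 102, 1 higher and 2 lower genes had an unadjusted p under 0.05, against 2.85% and 1.38% of all genes. The 5 with the smallest p there were Cdkn1a, an inhibitor of cyclin-dependent kinases and a p53 target, with 0.34, Exo1, an exonuclease of DNA repair, with -0.26, Dut, which removes dUTP, with -0.25, Hat1, which acetylates new histones, with -0.21, and Cdc25a, a phosphatase that activates cyclin-dependent kinases, with -0.20. All 12 further genes of nucleotide supply were below 0 at E12.5 (median -0.14), within batch 1 at a median of 0.020 and within batch 2 at -0.31. None of the 103 was called at an FDR under 0.05 at either stage (edgeR).

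Some of the members share exons with a neighbour on the opposite strand, and whether the counting used strand is not given in the sources used here. The share of exon bases was 78.8% for Fen1 with Gm10143, 70.7% for Gins2 with Gse1, 33.6% for Chaf1a with Ubxn6 and 19.1% for Rfc2 with Lat2, so the values of these genes are the least certain. Of pseudogene copies, Pcna-ps2 had between 35 and 54 counts in a cortex at E12.5 and Tyms-ps at most 4 at either stage.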

How the data were processed

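Poly(A) RNA of 8 mouse cortices (2 per genotype and stage) had been sequenced from directional libraries. The authors deposited a table of unnormalized counts of reads on genes for either stage. Their processing notes name HISAT2, Subread, mm10 and GRCm39; how each was used is not given in the sources used here. Total counts per library were 20799311 to 28189771. Symbols of the E12.5 identifiers came from a table of gene names. Exon lengths are unions over GENCODE vM21 basic transcripts.

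The members and lists were chosen with earlier results of these data known. Each stage was fitted alone in edgeR 4.0.16 (TMM, quasi-likelihood test after filterByExpr at 10 counts, with adjustment by Benjamini-Hochberg, two-sided, R 4.3.3), 14935 and 16326 genes. Fits over both stages used 15002 genes. Every cortex is given for members without overlap among the 10 smallest p and for the smallest p of each role, and the 5 smallest p of the wider list are named. The labels give the replicate number as a batch, and it was used to pair the cortices. What it stands for is not given in the sources used here. For E12.5 Mboat7+/- replicate 2 the record names the count column of replicate 1, so its column was taken from its title. The E12.5 differences within a batch rest on this. A difference within a batch compares 1 embryo with 1 embryo. Deviations of same-numbered cortices correlated at r = 0.083 at E11.5 and -0.20 at E12.5. No pair of cortices was as alike as sampling noise. DESeq2 1.42.0 and other alternatives are given in the closing section. Fits were tested on simulated data. With so few embryos, p-values measure the spread between these samples, and their litters are not given. Figures used matplotlib 3.10.9.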

Additional observations from a re-analysis of the deposited data

Results flagged for a closer look

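In 4 members every cortex labelled Mboat7-/- lay above both Mboat7+/- cortices at E11.5 and below both at E12.5, as did 2.53% of all genes tested at both stages, and in none was it the reverse (2.62% of all genes). The difference of log2 fold changes, E12.5 minus E11.5, was -0.38 ± 0.12 (standard error) for Pole, -0.30 ± 0.10 for Dnmt1, -0.30 ± 0.14 for Cdc6 and -0.28 ± 0.13 for Rrm1. In edgeR's test of the interaction of stage and genotype the unadjusted p was 0.00657 for Pole, 0.0113 for Dnmt1, 0.0519 for Cdc6 and 0.0472 for Rrm1, and the adjusted p was 0.807, 0.874, 0.888 and 0.888 in that order, so none passed the threshold. The levels of Rrm1 were 390.5 and 399 CPM in Mboat7+/- and 434 and 407 CPM in Mboat7-/- at E11.5 and 391 and 425 CPM in Mboat7+/- and 387 and 331 CPM in Mboat7-/- at E12.5. Stage and sequencing provider cannot be told apart in these differences. No group had the 4 samples that a check for single stray samples needs.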

How the results depend on the processing

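Each genotype had 2 cortices per stage, and the members had at least 168 counts each. The direction of the members' median at E12.5, over both stages and in the interaction was the same under every alternative run. At E11.5 the median ranged from -0.057 to 0.030 when each cortex was left out. The members called ranged from 0 to 2 at E11.5 and stayed at 0 at E12.5 in those fits. The genes called at E11.5, 0 in the fit as reported, were 2 with at least 10 counts in every cortex, 178 with DESeq2, 176 with the exact test, 505 with the replicate block, 160 with the block and the length and GC trend removed, and 1 to 1184 when a cortex was left out. At E12.5 the 3 genes called became 0 without a filter or with at least 10 counts in every cortex (edgeR, with 938 and 636 genes at an unadjusted p under 0.05), 10 with DESeq2, 28 with the exact test, 32 with the replicate block, 55 with the block and the trend removed, and 30 to 323 when a cortex was left out. A crossed pairing at E12.5, added after the data were seen, called 158 genes and 1 member, Mcm5. Over both stages 3 genes were called with DESeq2 and 3 with the block and the trend removed, and up to 13 when a cortex was left out. In the interaction 19 were called with DESeq2 and 0 to 83 when a cortex was left out. E2f7 at E11.5 went to -0.00044 with the length and GC trend removed and to -0.0023 with the block as well, and Gins2 at E11.5 ranged from -0.24 to 0.016 when a cortex was left out, above 0 without Mboat7+/- replicate 1. The replicate block changed no call of a member. Members with an unadjusted p under 0.05, 6 at E11.5 (14.1% of all genes), were 1 with the trend removed (8.38% of all genes). At E12.5 the 2 (4.23% of all genes) became 4 with DESeq2 (2.02%) and 0 without a filter (3.13%). They became 1 with the earlier quasi-likelihood form (4.11%) or the block (3.56%), and 20 with the crossed pairing (12.7%). Over both stages the 6 (12.4% of all genes) became 2 with the block and the trend removed (6.75%). These were Tyms and Rfc2, and Rfc2 was not among the 6. In the interaction the 3 (5.45%) became 1 with the trend removed (4.61%) and 0 with the block as well (4.63%). Where a cortex is left out, the lone one of its genotype is assumed to vary like the others. The cause was not tested.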
